A study of Mus musculus with 2 samples.

Results

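The secreted WNT inhibitors measured here are 9 genes of 3 families, the dickkopf genes Dkk1, Dkk2 and Dkk3, the WNT inhibitory factor gene Wif1, and the secreted frizzled-related genes Sfrp1, Sfrp2, Sfrp4, Sfrp5 and Frzb. They were taken by gene name from the gene spots of both scanner files. All 9 were found, each with 1 probe in 4 spots per array, so they account for 36 of 157716 gene spots, 9 of 39429 probes and 9 of 30011 gene names. All 9 passed the filter on dim probes. The study measured total RNA of mouse ureters on 2 two-colour arrays, each holding 1 mutant and 1 control RNA. Mutant embryos carried 1 Cre allele at the Tbx18 locus, Tbx18(cre/+), with Fgfr1(fl/fl) and Fgfr2(fl/fl), and Cre from that locus acts in the mesenchyme of the ureter and its descendants, while other cells of the organ keep the FGF receptors. Control embryos were Fgfr1(fl/?);Fgfr2(fl/?), with a second allele that the labels do not specify and no Cre allele listed, so receptor loss and Cre at the Tbx18 locus cannot be told apart. All embryos were of the NMRI strain, and all ureters were taken at E15.5 and grown on transwell membranes for 6 days. Array 1, labelled male, held the mutant RNA in Cy5, and array 2, labelled female, held it in Cy3, so array, sex label and dye orientation cannot be told apart. The labels do not say whether the replicates came from separate embryos or pools, and the p-values then measure only the spread between these RNA samples, which may be technical. The test takes most of that spread from all genes tested, with 1 residual degree of freedom per gene and 7.45 from the prior.

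WNT proteins are secreted signals that bind Frizzled receptors and, for the branch that acts through beta-catenin, the co-receptors Lrp5 and Lrp6. Secreted inhibitors act outside the cell on 2 levels of this pathway. Frizzled-related proteins carry a cysteine-rich domain like that of the Frizzled receptors, and Wif1 carries a WIF domain, and both kinds bind WNT proteins themselves, whereas Dkk1 and Dkk2 bind the co-receptors Lrp5 and Lrp6. In the developing ureter, WNT signals from the epithelium are known to act on the surrounding mesenchyme, which forms smooth muscle and the outer fibrous coat.

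The probes that the results turn on are given by their first 30 of 60 bases, 5′ to 3′ in the sense of the transcript, so that each measurement can be traced to the sequence that caught the RNA. No part is in capitals because no motif was sought in them.
Sfrp2: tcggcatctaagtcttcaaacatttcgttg
Sfrp1: ttaaaatagtcattccggagagtcagggaa
Sfrp4: cacagttgtctgtgtgcatactgtgtaaga
Frzb: gtgcaccagggtgttatttaacagaggtat
Dkk3: gcctgtaaatcgcatctgaagataccacag
In mm9 the whole probes lie at chr3:83577864-83577923 (Sfrp2, plus strand), chr8:24559438-24559497 (Sfrp1, plus), chr13:19724488-19724547 (Sfrp4, plus), chr2:80252582-80252641 (Frzb, minus) and chr7:119259556-119259615 (Dkk3, minus). The probes of the other 4 genes lie at chr19:30621424-30621483 (Dkk1, minus), chr3:131842357-131842416 (Dkk2, plus), chr10:120537079-120537138 (Wif1, plus) and chr19:42272509-42272568 (Sfrp5, minus). Which exon or untranslated region each probe covers was not determined here. Among the 36 pairs of these 9 probes, the longest run of bases shared at full length was 9, between the Dkk1 and Dkk3 probes, and the probes ran from 35% (Dkk1, Dkk3 and Frzb) to 45% (Sfrp2) G and C.

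Among the 22070 genes tested, 836 passed an adjusted p of 0.05 with limma and Benjamini-Hochberg adjustment, 3.79% of them. Each ratio is the log2 of mutant over control signal, as a mean with its SD between arrays, and levels are log2 intensities of single channels after normalisation between arrays, which compare a probe only with itself. In the 4 channels, 70.3% to 78.3% of gene spots had a signal well above background, and the number of arrays limits the precision. The brightest probe of Fgfr1 had a ratio of -0.33 ± 0.15 (SD, n = 2; limma adjusted p = 0.134), that of Fgfr2 had 0.56 ± 0.02 (SD, n = 2; limma adjusted p = 0.0309) and the probe of Tbx18 had 0.19 ± 0.06 (SD, n = 2; limma adjusted p = 0.320). With every probe tested, the other probes of Fgfr1 had -0.54 and -0.37 (limma adjusted p = 0.0280 and 0.0929). The other probe of Fgfr2 had 0.76 in that fit (limma adjusted p = 0.00686). The sources used here do not say whether these probes lie in the deleted exons, so they do not check the genotype.

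The inhibitors split in direction. Of the 9 genes, 2 rose in the mutant RNA, Sfrp2 and Dkk3, 2 fell, Sfrp1 and Sfrp4, and 5 did not pass, against 1.76% of all genes called higher and 2.03% called lower. Their median ratio was 0.11, against -0.02 for all genes tested, and single ratios ran from -0.60 to 0.75. The ratio kept its sign on both arrays for 8 of the 9 genes, where 66.5% of all genes tested did so. In 6 of the 9 the mutant and control levels did not overlap, where 45.1% of all genes tested had such levels. Of these 6, 3 were higher in the mutant RNA (21.5% of all genes) and 3 lower (23.5%). Equal signs and separate levels are thus common over the whole array.

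**Figure D1:**
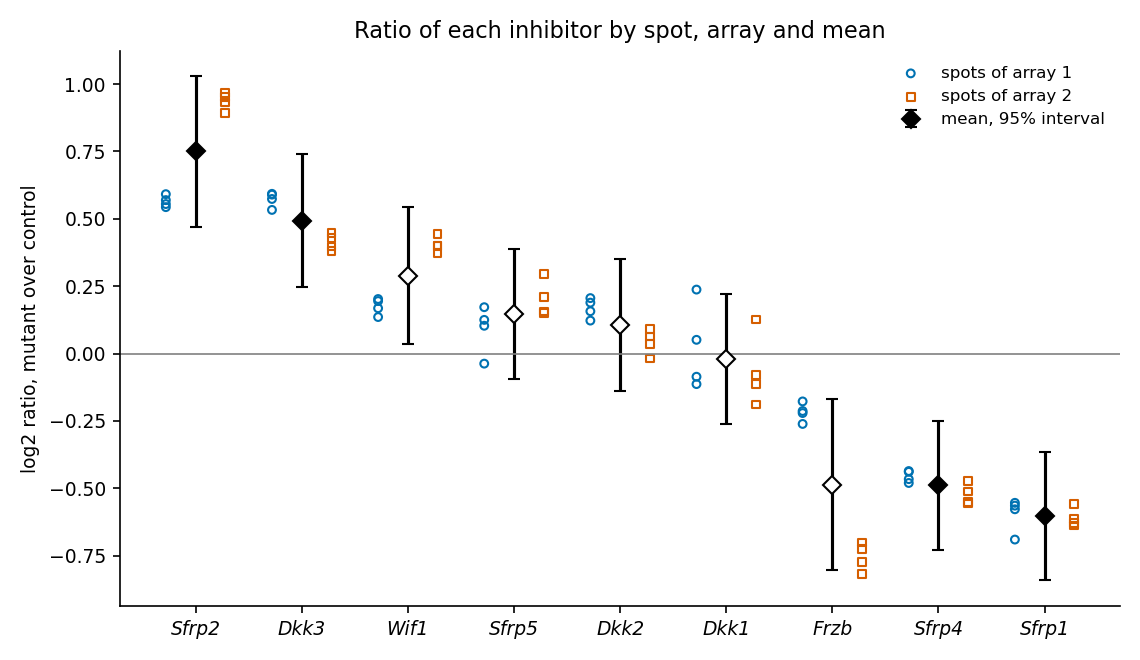
Log2 ratio of mutant over control for each inhibitor, ordered by its mean. Open circles and squares are the 4 spots of array 1 and array 2, diamonds are means with 95% intervals from limma, and filled diamonds passed an adjusted p of 0.05: Sfrp2 and Dkk3 lie above 0, and Sfrp4 and Sfrp1 lie below it.

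Sfrp2 had the largest mean ratio in size of the 9 inhibitors, although on array 1 the ratios of Sfrp1 and Dkk3 were larger. With median centring those of Sfrp1, Sfrp4 and Frzb were larger in size, and relative to all genes in that setting only that of Sfrp1. The product of Sfrp2 is a frizzled-related protein of the subgroup that also holds Sfrp1 and Sfrp5. It binds WNT proteins and is made by many kinds of embryonic mesenchyme. The probe read 13.63 and 13.77 in the control RNA of arrays 1 and 2, and 14.19 and 14.70 in the mutant RNA. Both mutant levels lay above both control levels, and the higher of them was on array 2. The ratio was 0.56 on array 1 and 0.94 on array 2, a mean of 0.75 ± 0.26 (SD, n = 2; limma adjusted p = 0.0228), or 1.68-fold, with a 95% interval of 0.47 to 1.03. The 4 spots of array 1 ran from 0.54 to 0.59 and those of array 2 from 0.89 to 0.97. The arrays therefore differed by more than the spots within an array did.

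Sfrp1 went the other way. It belongs to the same subgroup as Sfrp2, and its product also binds WNT proteins through the cysteine-rich domain. Levels were 12.78 and 12.38 in the control RNA and 12.18 and 11.77 in the mutant RNA. Both mutant levels lay below both control levels, although control and mutant were each lower on array 2, by 0.39 and 0.41. Within each array the difference was nearly equal, -0.60 on array 1 and -0.61 on array 2, a mean of -0.60 ± 0.01 (SD, n = 2; limma adjusted p = 0.0248), or 1.52-fold lower, with a 95% interval of -0.84 to -0.36. This interval lies wholly below that of Sfrp2. Sfrp5, the third gene of the subgroup, was dim, with levels of 8.07 and 7.85 in the control RNA and 8.16 and 8.05 in the mutant RNA. Its levels overlapped between genotypes, and its ratio of 0.15 ± 0.08 (SD, n = 2; limma adjusted p = 0.450) had a 95% interval of -0.10 to 0.39.

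Sfrp4 and Frzb, which encodes the protein also called Sfrp3, form the other subgroup of frizzled-related genes. Sfrp4 read 14.53 and 14.38 in the control RNA and 14.07 and 13.86 in the mutant RNA. Both mutant levels were below both control levels. It fell by 0.49 ± 0.05 on the log2 scale (SD, n = 2; limma adjusted p = 0.0452), or 1.40-fold, with -0.46 on array 1, -0.52 on array 2 and a 95% interval of -0.73 to -0.25. Frzb read 9.77 and 9.84 in the control RNA and 9.55 and 9.08 in the mutant RNA. Again no mutant level reached a control level, but the gap was uneven, with a ratio of -0.22 on array 1 and -0.75 on array 2. The mean of -0.49 ± 0.38 (SD, n = 2; limma adjusted p = 0.0921) was as large as that of Sfrp4 and did not pass, with a 95% interval of -0.80 to -0.17. The spots of Frzb ran from -0.26 to -0.18 on array 1 and from -0.82 to -0.70 on array 2. The difference between its arrays was thus far larger than the spread of spots, with array, sex label and dye not separable.

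**Figure D2:**
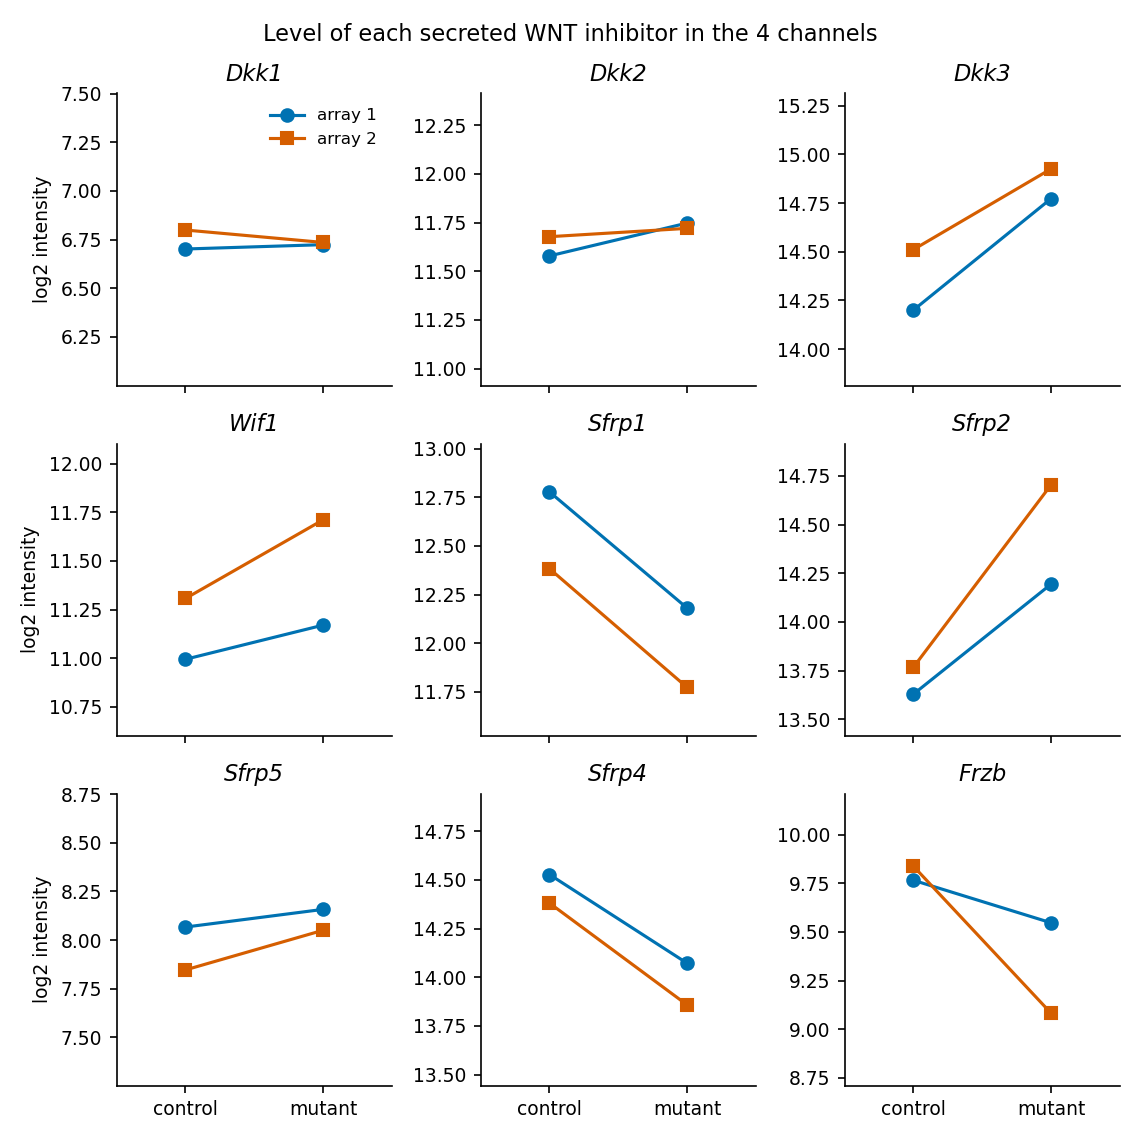
Normalised log2 intensity of each inhibitor's probe in the control and mutant channel of array 1 (circles) and array 2 (squares), a line joining the channels of 1 array. Every panel spans the same range of log2 units, so slopes can be compared. Sfrp2, Dkk3, Wif1, Sfrp5 and Dkk2 rise on both arrays, Sfrp1, Sfrp4 and Frzb fall on both, and the lines of Dkk1 are nearly flat. On arrays 1 and 2, Wif1 rises by 0.18 and 0.40, Sfrp5 by 0.09 and 0.20, and Dkk2 by 0.17 and 0.04.

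Of the dickkopf genes, Dkk3 passed the test, with an adjusted p just below 0.05, and Dkk1 and Dkk2 did not. Dkk3 is the divergent member of its family, and it is not known to block Lrp5 and Lrp6 as Dkk1 does. Its probe read 14.20 and 14.51 in the control RNA and 14.77 and 14.93 in the mutant RNA. Both mutant levels exceeded both control levels. The ratio was 0.57 on array 1 and 0.41 on array 2, a mean of 0.49 ± 0.11 (SD, n = 2; limma adjusted p = 0.0470), or 1.41-fold, with a 95% interval of 0.25 to 0.74. Dkk2 had levels of 11.58 and 11.68 in the control RNA and 11.75 and 11.72 in the mutant RNA. They did not overlap, but the gap was narrow, and the ratio of 0.11 ± 0.09 (SD, n = 2; limma adjusted p = 0.598) had a 95% interval of -0.14 to 0.35.

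Dkk1, the best known antagonist of Lrp5 and Lrp6 and itself a WNT target in many tissues, was close to background. Its probe exceeded background clearly on both arrays in control RNA and on neither in mutant RNA. Levels were 6.70 and 6.80 in the control RNA and 6.72 and 6.74 in the mutant RNA. The measured means were 6.75 (control) and 6.73 (mutant), and the control mean stood 1.01-fold above the mutant signal held at a bound. On array 1 the mutant level was the higher, so no least excess in the control RNA is shown. The ratio, 0.02 on array 1 and -0.06 on array 2, averaged -0.02 ± 0.06 (SD, n = 2; limma adjusted p = 0.931), with a 95% interval of -0.26 to 0.22. The bound for the mutant signal is, on each array, the higher of the dim probe's own signal and the lowest signal of any probe well above background. At this signal a difference in Dkk1 was not detectable.

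Wif1, which binds WNT proteins through its WIF domain, read 10.99 and 11.31 in the control RNA and 11.17 and 11.71 in the mutant RNA. The lower mutant level fell between the control levels. The ratio was 0.18 on array 1 and 0.40 on array 2, a mean of 0.29 ± 0.16 (SD, n = 2; limma adjusted p = 0.178), with a 95% interval of 0.03 to 0.54. It did not pass after adjustment, at an unadjusted limma p of 0.0305. Of all genes tested, 22.5% had an unadjusted limma p below 0.05. In the order of ratios, Sfrp2 and Dkk3 were followed by Wif1, Sfrp5, Dkk2, Dkk1, Frzb, Sfrp4 and Sfrp1. The intervals of neighbours in this order overlapped throughout.

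The calls depended on the normalisation. When each array was centred on its median in place of loess, no gene of the array passed, and the median of all genes moved by -0.12. The inhibitors moved by unlike amounts, from -0.02 to 0.15 for Dkk1 and from 0.75 to 0.48 for Sfrp2. Relative to all genes, Sfrp2 then stood at 0.62, Dkk3 at 0.35, Sfrp1 at -0.66, Sfrp4 at -0.60 and Frzb at -0.51. The uncorrected mean of Dkk3 was 0.21, with 0.51 on array 1 and -0.10 on array 2, so its rise was not seen on both arrays in that setting. The processed signals of the scanner software, and the authors' deposited table of fold changes, gave none of the 4 calls either, with ratios of 0.73 and 0.74 for Sfrp2, 0.49 and 0.50 for Dkk3, -0.61 and -0.63 for Sfrp1, and -0.51 in both for Sfrp4.

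**Figure D3:**
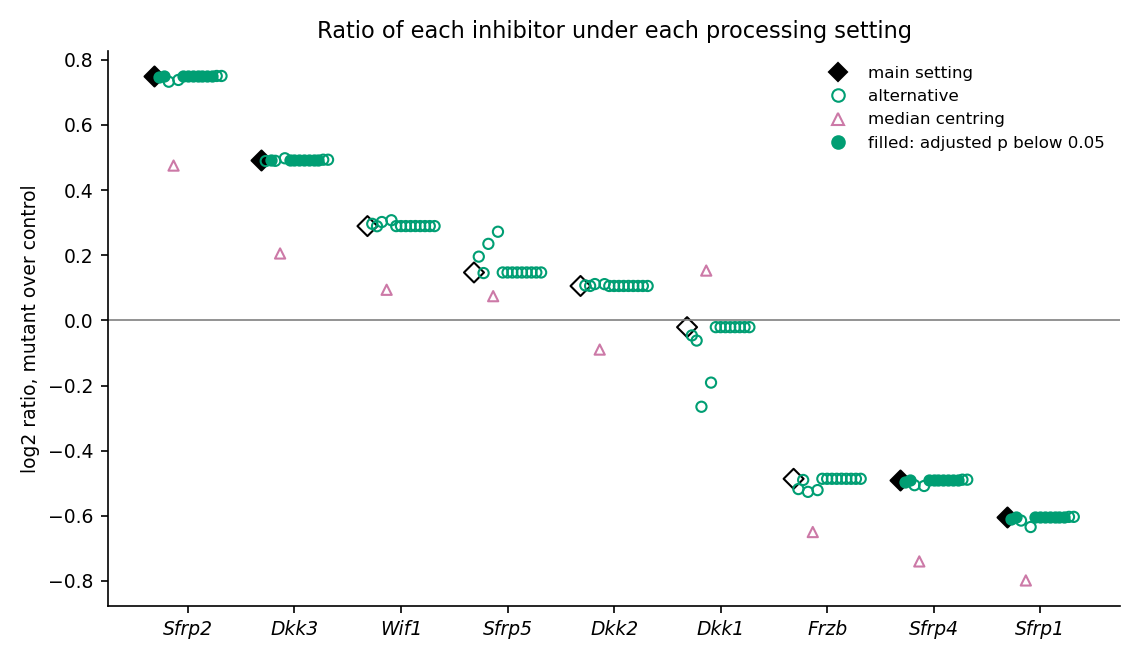
Log2 ratio of each inhibitor under the main setting (diamond), the alternatives (circles) and median centring (triangle), filled where the adjusted p was below 0.05. Apart from median centring, the ratios of Sfrp2, Dkk3, Wif1, Dkk2, Frzb, Sfrp4 and Sfrp1 stay close together, while those of the dim probes of Sfrp5 and Dkk1 spread up to 0.27 and down to -0.27.

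Other genes of the WNT pathway were set beside the inhibitors by role. Of 5 tested among 8 further extracellular inhibitors, 1 rose and none fell, with a median ratio of 0.26. The gene that rose was Sostdc1, whose product binds BMP and Lrp6, at 0.63 ± 0.33 (SD, n = 2; limma adjusted p = 0.0428). Dkk4, Sost and Cer1 of that list were not well above background on both arrays in either genotype and were not tested. Among the receptors on which dickkopf proteins act, 0 of 3 passed. Lrp6 had the largest ratio, 0.35 ± 0.03 (SD, n = 2; limma adjusted p = 0.101), while its second probe had a mean of 0.06 with opposite signs on the arrays. Kremen2 was not tested.

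Of the WNT ligands, the proteins that frizzled-related proteins and Wif1 bind, 3 of 12 tested rose, none fell and the median was 0.24. Wnt4, Wnt10a and Wnt6 rose by 0.78 ± 0.29, 0.67 ± 0.20 and 0.63 ± 0.12 (SD, n = 2), at limma adjusted p of 0.0228, 0.0248 and 0.0248. The remaining 7 of the 19 ligand genes were too dim to be tested. Of 13 Frizzled and other WNT receptors, 2 rose and none fell, with a median of 0.10, or -0.03 with median centring, which is 0.11 relative to all genes in that setting. Fzd10 rose by 0.88 ± 0.28 and the WNT receptor gene Ror2 by 0.67 ± 0.11 (SD, n = 2), at limma adjusted p of 0.0179 and 0.0228. R-spondins are proteins that strengthen WNT signals at the cell surface. Of 8 R-spondins and their receptors, only Rspo1 was called higher, by 0.76 ± 0.17 (SD, n = 2; limma adjusted p = 0.0194), and none was called lower. Single ratios of this list ran from -0.50 to 0.76. Its median was 0.12, or -0.05 with median centring, which is 0.09 relative to all genes in that setting.

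Among 15 tested WNT targets, 4 rose and 1 fell, with a median of 0.26. The lists are not independent. Sostdc1, Apcdd1 and Notum also stand among the further extracellular inhibitors, and the median of both lists is the ratio of Notum. Rnf43, Znrf3 and Lgr5 also stand among the R-spondins and their receptors. The transcription factor genes Sp5 and Lef1 rose by 0.80 ± 0.03 and 0.48 ± 0.03, Nkd1, a feedback inhibitor inside the cell, rose by 0.76 ± 0.17, and Sostdc1, which stands in this list too, is given above (SD, n = 2). Their limma adjusted p values were 0.0149, 0.0460 and 0.0194. The hyaluronan receptor gene Cd44 fell by 0.65 ± 0.14 (SD, n = 2; limma adjusted p = 0.0243). A second probe of Nkd1 had a ratio of 0.40 (limma adjusted p = 0.0603 with every probe tested), and the 4 probes of Cd44 ran from -0.65 to -0.22. With median centring all these genes kept their direction, from 0.29 for Lef1 to 0.70 for Fzd10 and -0.86 for Cd44, and none passed. These lists were drawn up with earlier results of these arrays known, and no test of a list as a whole was made.

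**Figure D4:**
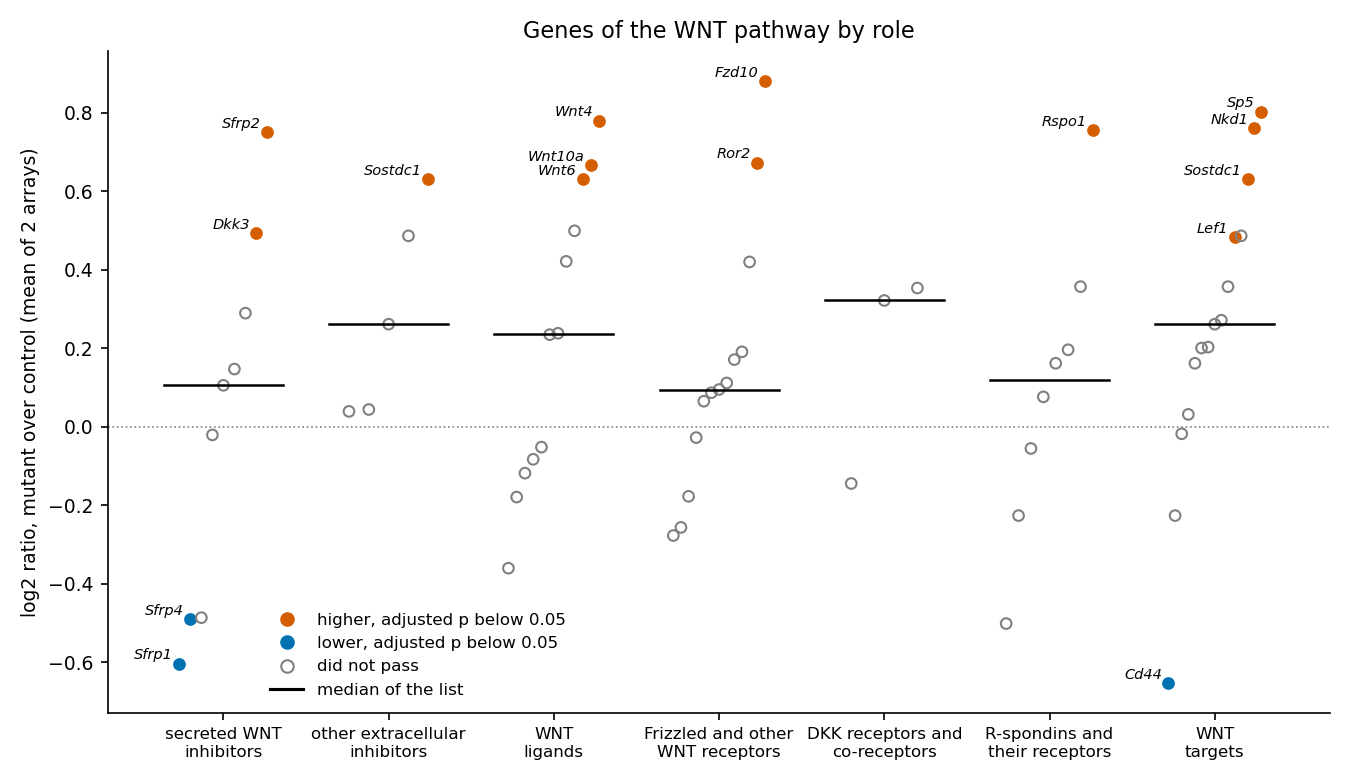
Mean log2 ratio of every tested gene of 7 WNT lists, each point 1 gene, horizontal bars the list medians and filled points the genes with an adjusted p below 0.05. Called genes of the other lists lie above 0 except Cd44, whereas the 9 inhibitors hold 2 called genes above 0 and 2 below it.

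The genes whose pair of array ratios lay closest to that of Sfrp2, among the 125 tested genes of the WNT and cell type lists, were Wnt4, Rspo1 and Nkd1, at Euclidean distances of 0.05, 0.09 and 0.10 log2 units over 2 arrays. Closest to Sfrp1 were the endothelial gene Emcn, the matrix gene Postn and the macrophage gene Fcer1g, at 0.04, 0.05 and 0.06. With a single pair of values per gene, many genes lie near any given one.

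Several cell types of the culture differed between the RNA samples, and in RNA of whole ureters fewer cells of a type cannot be told apart from less RNA per cell. Of 10 fibroblast and adventitia markers, 0 were higher and 2 lower, with a median ratio of -0.14 and a summed level of 19.00 to 19.06 (control) and 18.98 to 19.11 (mutant) in log2 units. Smooth muscle markers had 0 of 8 called and a median of -0.01, with summed levels of 19.23 in both controls and of 19.18 and 19.29 in the mutant RNA. These medians depended on the normalisation. With median centring they were -0.43 for fibroblast and adventitia markers and -0.32 for smooth muscle markers. Relative to all genes in that setting they were -0.29 and -0.18. Adipocyte markers were lower in 7 of 8, with summed levels of 17.05 to 17.17 (control) and 15.78 to 16.59 (mutant). Endothelial markers were lower in 6 of 8, at 12.59 to 12.74 (control) and 12.11 to 12.16 (mutant), and macrophage markers in 4 of 8, at 16.36 to 16.76 and 15.86 to 16.42. Urothelial markers were higher in 4 of 10, at 18.02 to 18.12 (control) and 18.55 to 18.80 (mutant). Neuron and Schwann cell markers were lower in 5 of 8, at 15.43 to 15.79 (control) and 15.82 to 15.96 (mutant), and kidney tubule markers higher in 4 of 6 tested, at 10.06 to 10.17 and 10.66 to 11.81. Mesothelial markers were higher in 2 of 5, at 16.10 to 16.18 and 16.21 to 16.54, and skeletal and cardiac muscle markers lower in 2 of 6 tested, at 15.42 to 15.44 and 15.05 to 15.13. Upk3b, called in the mesothelial list, stands in the urothelial list too and is counted in both. The mesothelial sum rests mostly on Krt19, at 16.00 and 16.07 (control) and 16.08 and 16.43 (mutant), which did not pass (limma adjusted p = 0.305). On both arrays Aoc1, Umod and Kcnj1 of kidney tubules were not well above background in control RNA, while Slc12a1, Lrp2, Actn2 and Myog were not tested. The part of these differences in the ratios of the inhibitors was not tested.

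Motifs of the TCF and LEF factors, through which beta-catenin acts on DNA, were looked for in the RefSeq promoters (GRCm38.p6, from 250 bases before to 50 after the start), which matched 6 of the 9 genes. The letters CTTTGAT and CTTTGAA, searched on both strands, stood in 1 of the 6, that of Dkk1. Counted by gene, 9.88% of the 27025 genes with a promoter of 300 bases in the table held them, and 8.65% of all 32851 such promoters did. The stretch around the match in Dkk1, with the motif in capitals, begins 128 bases before the start.
Dkk1: tcctcccaaagCTTTGAAatcccatcccgg
The promoters of Dkk2, Wif1, Sfrp2, Sfrp5 and Frzb held neither run of letters. These matches are descriptions of the window alone, and the one gene that holds the motif is the one whose probe was close to background.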

How the data were processed

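Mean spot intensity and median local background intensity, on a linear scale, came from the scanner files the authors deposited (Agilent Feature Extraction, version 10.7.3.1 by the submitters' processing notes). The processed intensity had been background-subtracted, detrended and dye-normalised, and the log10 ratio of red over green rests on it, per the file headers. The authors' deposited table holds a score per probe with the form of a signed fold change, never between -1 and 1. Set against the red over green ratio across probes, Pearson's r was 0.69 for array 1 and -0.84 for array 2, so it runs as mutant over control on both. The log2 median of its values was 0 on both arrays, and how it was centred stays unknown.

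Signals were corrected with normexp (offset 50), which draws ratios of dim probes towards 0, and normalised by loess within arrays in limma 3.58.1 (R 4.3.3); channel levels were also scaled between arrays (Aquantile). Outlier spots were left out (3.17% and 3.65%) and spots averaged. A probe was tested where, in 1 genotype or both, more than a share of 0.5 of its spots cleared background on each array. The brightest probe stood for a gene. Ratios were tested against 0 with lmFit and eBayes, two-sided, at an adjusted p of 0.05, with 1 residual degree of freedom and 7.45 from the prior. A dye effect cancels in the mean and adds to the spread. Tested on simulated data, the fit gave the changed genes the right sign, but in every run the share of false calls was above the nominal 0.05, and the adjusted p of Dkk3 and Sfrp4 lie close to that threshold. Members and lists were chosen with earlier results of these data known. Named were all members, every called gene of a WNT list (at most 6) or otherwise its largest ratio, the 3 nearest genes, the floxed genes and Tbx18. Genes of the lists are also named where they were dim or untested, shared between lists or weighed on a sum.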

Additional observations from a re-analysis of the deposited data

Results flagged for a closer look

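Dkk1 was the 1 inhibitor whose ratio had opposite signs on the array labelled male, at 0.022, and on the array labelled female, at -0.064. The difference was not tested, each label having 1 array, and the spots of the probe ran from -0.11 to 0.24 and from -0.19 to 0.13.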

How the results depend on the processing

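Of the 4 called inhibitors, 2 higher and 2 lower, normexp with offset 0 left 1 higher (Dkk3 had a limma adjusted p of 0.0531) and 2 lower. The scanner software's processed signals, median centring, the authors' deposited table and separate channels with or without the array as a block left 0 higher and 0 lower. In those settings limma called 10, 0, 170, 214 and 3 genes, against 836, and 4621, 5584, 4691, 4614 and 2392 had an unadjusted p under 0.05, against 4955. Higher genes were 46.5% of calls, and 2 of the 3 without the block. Testing every probe called 1471 and an intensity trend 1415. Median centring reversed Dkk1, to 0.15, and Dkk2, to -0.090, which is 0.05 above the median of all genes in that setting. Limma adjusted p ran from 0.00727 to 0.307 for Sfrp2, 0.0310 to 0.488 for Dkk3, 0.00750 to 0.385 for Sfrp1, 0.0299 to 0.338 for Sfrp4 and 0.0645 to 0.406 for Frzb. The cause was not tested. Leaving out 1 array leaves the other's ratio, with no test: 0.56 to 0.94 for Sfrp2 and -0.75 to -0.22 for Frzb. The ratios pair both genotypes within an array, and the fit without the array block drops that pairing. Signal near background limits Dkk1.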
